A study of Mus musculus with 6 samples.

Results

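Broad H3K56ac domains were defined by width alone, as those merged peaks that spanned 3000 bp or more. They numbered 759 of 11106 peaks (6.83%) and held 21.8% of all bases under peaks, or 3.15 Mb. The mark is an acetyl group on lysine 56 of histone H3, mapped by ChIP-seq in mouse embryonic stem cells (mESCs) of the V6.5 line that had been grown on feeder cells. The cells had been infected with lentivirus and selected with puromycin. The virus of the control group, Scramble, encoded a scrambled shRNA. That of the *Sirt6* KD group targeted *Sirt6*, the gene of a deacetylase that acts on this residue. Each group had 2 H3K56ac libraries and 1 input library, and all 4 H3K56ac libraries entered 1 merged set of peak positions. The study asked whether H3K56ac rises when *Sirt6* is lost, which these positions cannot show, since they name neither the library nor the group of a peak. Each group rested on 1 shRNA, chromatin of feeder cells may be included, and the file held no read counts, so depth per domain is unknown. Positions are given on mm10 with genes of GENCODE M21, and intervals after shares are Wilson 95% intervals that cover counting error only.

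Lysine 56 lies in the globular core of H3, near the place where DNA enters and leaves the nucleosome. In mammals the acetyltransferases p300 and CBP deposit the mark, and it is found at active promoters and enhancers. Wide stretches of active histone marks are known from highly transcribed genes and from regulators of cell identity, where they may cover a promoter, the first part of the gene and nearby enhancers as 1 block. In stem cells such regulators include *Pou5f1*, *Sox2* and *Esrrb*, transcription factors that sustain self-renewal.

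The broad domains held the miR-290 cluster, microRNAs abundant in pluripotent cells. Its hairpins lay in a domain of 3030 bp (chromosome 7, 3217726 to 3220755), with *Mir290a*, *Mir291a*, *Mir292*, *Mir291b*, *Mir293* and *Mir294* inside and *Mir295* 17 bp outside. The mature sequences from RefSeq (GRCm38) are grouped by seed and shown with the seed, bases 2 to 8, in capitals, since the seed decides which messages a microRNA pairs with.
miR-290a-3p: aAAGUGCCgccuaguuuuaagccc
miR-291a-3p: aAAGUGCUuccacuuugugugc
miR-294-3p: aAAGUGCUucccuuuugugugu
miR-291b-3p: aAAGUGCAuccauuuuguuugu
miR-290a-5p: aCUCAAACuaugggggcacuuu
miR-292a-5p: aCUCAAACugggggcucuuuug
miR-293-5p: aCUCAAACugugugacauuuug

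The seed AAGUGCU was shared by miR-291a-3p and miR-294-3p, and miR-290a-3p and miR-291b-3p carried the related seeds AAGUGCC and AAGUGCA. The seed CUCAAAC was common to miR-290a-5p, miR-292a-5p and miR-293-5p. In all, 31 mature microRNAs of 17 hairpin genes lay inside 9 broad domains, or 1.78% of 1738 mature sequences. They included miR-191 and miR-425 in the 4926-bp domain at *Ndufaf3* (chromosome 9, 108565837 to 108570762). Of 13 listed stem cell microRNA genes 8 (61.5%) had their start in a broad domain, all in the 3030-bp one, beside 1.36% of 2202 annotated microRNA genes, and the miR-302 cluster, also known from pluripotent cells, had no peak at its hairpins.

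Median CpG and repeat content differed between promoter and distal broad domains, classes set by the midpoint. Promoter domains had midpoints within 1 kb of a protein-coding TSS, and distal ones farther than 3 kb from every such TSS. Single stretches of the reference sequence are shown as examples, and their CpG counts overlap. For 4 domains over a TSS, the 150 bases just upstream of the start of the gene are printed along the direction of transcription, with every CpG in capitals.
*Sox2*, upstream of the TSS, chr3:34650255-34650404, plus strand: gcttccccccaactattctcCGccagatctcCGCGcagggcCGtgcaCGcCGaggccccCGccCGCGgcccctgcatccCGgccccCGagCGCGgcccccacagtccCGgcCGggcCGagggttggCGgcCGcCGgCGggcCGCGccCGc
*Mybl2*, upstream of the TSS, chr2:163054537-163054686, plus strand: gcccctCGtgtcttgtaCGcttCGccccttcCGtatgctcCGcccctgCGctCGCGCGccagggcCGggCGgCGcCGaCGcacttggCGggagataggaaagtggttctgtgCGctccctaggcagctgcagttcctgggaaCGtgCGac
*Tdgf1*, upstream of the TSS, chr9:110946159-110946308, minus strand: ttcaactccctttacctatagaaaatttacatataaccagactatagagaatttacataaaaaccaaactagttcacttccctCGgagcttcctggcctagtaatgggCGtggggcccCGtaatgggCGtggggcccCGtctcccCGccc
*Pou5f1*, upstream of the TSS, chr17:35505868-35506017, plus strand: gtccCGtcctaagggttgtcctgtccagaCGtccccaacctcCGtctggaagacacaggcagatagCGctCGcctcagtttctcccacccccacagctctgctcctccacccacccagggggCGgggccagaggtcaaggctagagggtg

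The *Sox2* stretch held 23 CpGs and the *Mybl2* stretch 18, whereas those of *Tdgf1* and *Pou5f1* held 6 each. Upstream stretches of the same length had a median of 11 CpGs (quartiles 7 and 17) in genes with a TSS in a broad domain, of 10 (quartiles 6 and 14) in genes with a TSS in narrower peaks only, and of 6 (quartiles 2 and 12) in all 21938 protein-coding genes. The next stretches are the central 150 bases of 3 broad domains far from every protein-coding TSS, on the plus strand.
Downstream of *Sox2*, midpoint, chr3:34757783-34757932, plus strand: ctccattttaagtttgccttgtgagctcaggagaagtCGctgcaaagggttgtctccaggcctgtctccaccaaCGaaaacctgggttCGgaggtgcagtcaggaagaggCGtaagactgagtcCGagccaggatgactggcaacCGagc
Downstream of *Klf4*, midpoint, chr4:55477726-55477875, plus strand: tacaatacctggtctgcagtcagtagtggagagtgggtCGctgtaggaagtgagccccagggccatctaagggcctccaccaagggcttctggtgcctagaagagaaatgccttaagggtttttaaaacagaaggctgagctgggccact
Upstream of the miR-290 cluster, midpoint, chr7:3203609-3203758, plus strand: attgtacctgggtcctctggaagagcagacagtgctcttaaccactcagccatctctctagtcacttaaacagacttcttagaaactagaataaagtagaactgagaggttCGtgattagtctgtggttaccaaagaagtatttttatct

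These held 6, 1 and 1 CpGs, so the *Sox2* one held as many as the stretches upstream of *Tdgf1* and *Pou5f1*. The median was 2 (quartiles 1 and 4) at the midpoints of 173 distal broad domains and also 2 (quartiles 1 and 4) at those of 3209 distal narrower peaks. Over their whole width, broad promoter domains had a median of 40.1 CpGs per kb and distal broad domains 16.0. Narrower peaks were split likewise, with 41.7 at promoters and 14.8 in distal ones. Repeats, as masked in the reference, made up a median of 12.7% of bases in broad promoter domains and 21.6% in distal broad domains. For narrower promoter and distal peaks the medians were 8.2% and 13.8%.

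The widest domain covered 21508 bp of *Myo10* (chromosome 15, 25750650 to 25772157), which encodes an unconventional myosin of filopodia. It reached from 8135 bp upstream to 13372 bp downstream of an internal TSS. *Mybl2*, a transcription factor gene of proliferating cells, had a domain of 14382 bp (chromosome 2, 163050015 to 163064396). The domain of *Hsp90aa1*, the inducible cytosolic HSP90 chaperone, measured 11147 bp (chromosome 12, 110693330 to 110704476). *Klf3*, a Kruppel-like factor, followed with 10592 bp (chromosome 5, 64804192 to 64814783). *Phc1*, a subunit of Polycomb repressive complex 1, had 10340 bp (chromosome 6, 122335882 to 122346221). These 5 were the only domains of 10 kb or more, and 137 reached 5 kb. At *Sox2* the domain of 9909 bp (chromosome 3, 34647780 to 34657688) contained the whole gene and a TSS of the long noncoding RNA *Sox2ot*.

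The remaining 19 of the 25 widest domains were 7577 to 9215 bp wide. A TSS lay inside 8 of these, at *Mllt6* (9215 bp), *Wsb2* (9127 bp), *B3gnt7* (8592 bp), *Tbx3* (8440 bp), *Tgif1* (8334 bp), *Fzd5* (8038 bp), *Sept1* with *Mylpf* (8033 bp) and *Mcl1* (7982 bp). Among these, *Tbx3* encodes a T-box factor of naive stem cells, *Tgif1* a repressor in TGF-beta signalling, *Fzd5* a Wnt receptor and *Mcl1* a survival factor of the BCL2 family. The other 11 held no TSS of a protein-coding gene. They lay inside *Dst* (8749 bp) and *Tmem51* (8503 bp) or nearest to *Tuba1a* (8752 bp), *Rab12* (8517 bp), *Sec14l1* (8149 bp), *Stoml1* (7991 bp), *Hs6st1* (7942 bp), *Zfp281* (7857 bp), *Setd1b* (7731 bp), *Klf4* (7585 bp) and *Epha2* (7577 bp). Several of them covered the start of a noncoding gene, namely *Snhg20* for the domain nearest to *Sec14l1*, *Platr22* for that nearest to *Zfp281*, *4930578M01Rik* for that nearest to *Tuba1a*, and 3 such genes for that nearest to *Setd1b*.

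**Figure D1:**
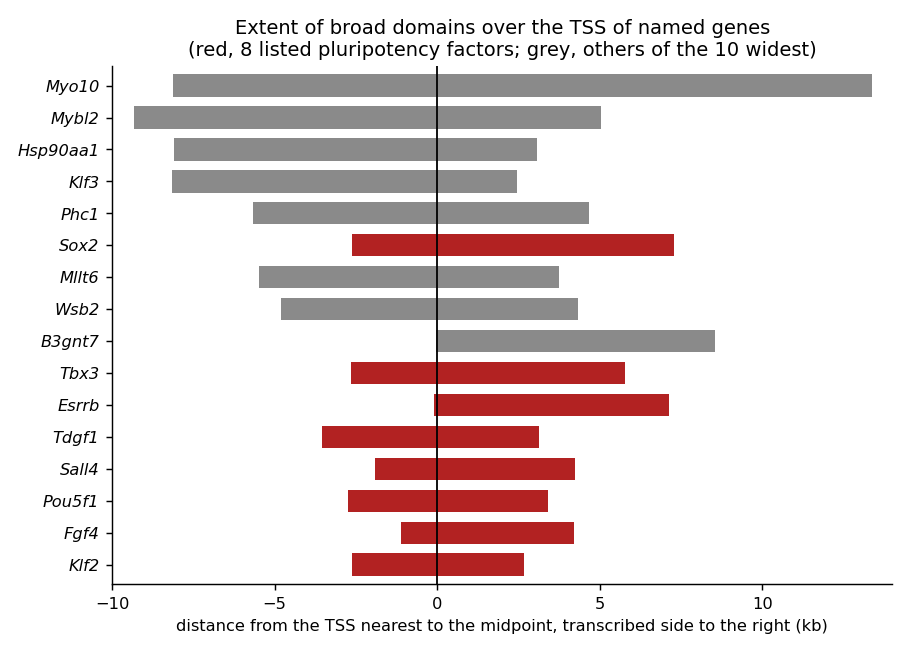
Extent of broad domains over the TSS of the 10 widest such domains and of the 8 listed pluripotency factors with the widest domains, in kb from the TSS nearest to the domain's midpoint, with the transcribed side to the right. Bars run from the upstream to the downstream edge: *Myo10* spans 8135 bp upstream to 13372 bp downstream. *Esrrb* starts 107 bp upstream of an internal TSS and runs 7118 bp downstream of it.

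A TSS of 707 of 21938 protein-coding genes lay inside a broad domain, or 3.22%, and that of 4780 further genes (21.8%) lay inside narrower peaks only. These shares are the background for the gene lists that follow. A wide peak has more room for a TSS than a narrow one, so shares of listed genes are given as counts without a test.

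Transcription factors and companions of the pluripotent state were held by broad domains in 18 of 30 listed genes (60.0%). Only 3 lay in narrower peaks and 9 in none. Besides *Sox2* and *Tbx3*, the widest were the nuclear receptor gene *Esrrb* (7226 bp), the Nodal co-receptor gene *Tdgf1* (6689 bp), the zinc finger gene *Sall4* (6157 bp) and *Pou5f1* (6152 bp), which encodes OCT4. They were followed by the growth factor gene *Fgf4* (5310 bp) and the Kruppel-like factor gene *Klf2* (5290 bp). The median width over the 18 genes was 5120 bp, beside 3659 bp for all broad domains. *Nanog*, another core factor, had a peak of 2924 bp and *Lin28a*, an RNA-binding regulator of let-7, of 2824 bp, so both fell just short of the width that defines a broad domain. *Gbx2*, also in a narrower peak, had only 929 bp. *Dppa5a* had no TSS in a peak, yet a domain of 6662 bp (chromosome 9, 78368376 to 78375037) ended 198 bp from the gene. For the other genes without a TSS in a peak, among them *Prdm14*, *Utf1* and *Otx2*, the nearest broad domain was 250955 bp away or farther.

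Broad domains differed in where they sat on these genes. The *Pou5f1* domain (chromosome 17, 35503286 to 35509437) had its midpoint 343 bp downstream of the TSS. At *Esrrb* (chromosome 12, 86470010 to 86477235) the domain began 107 bp upstream of an internal TSS and ran 7118 bp downstream of it. Its midpoint lay 3505 bp downstream of that internal TSS. *Esrrb* contained a second broad domain of 5438 bp and 9 peaks in all. *Tbx3* also had 2, of 8440 and 3245 bp, as did *Tfcp2l1*, a factor of the LIF response, with 4641 bp at its TSS and 4906 bp centred 20483 bp downstream.

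Genes of signalling pathways that act in stem cells were in broad domains in 6 of 28 cases (21.4%), in narrower peaks in 7 and in none in 15. The 6 were the ERK phosphatase gene *Dusp6* (5160 bp), the ETS factor gene *Etv5* (4209 bp), the FGF antagonists *Spry4* (4152 bp) and *Spry2* (4120 bp), the JAK-STAT inhibitor *Socs3* (4043 bp) and the TGF-beta ligand *Nodal* (3577 bp). Apart from *Nodal*, a ligand, and *Etv5*, a transcription factor, these encode feedback inhibitors. Other listed feedback inhibitors were not in broad domains: *Smad7* had a narrower peak of 2712 bp, and *Lefty1*, *Lefty2* and *Axin2* had no TSS in a peak. The LIF receptor genes *Lifr* (2841 bp) and *Il6st* (2206 bp) had narrower peaks.

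Chromatin regulators were in broad domains in 6 of 30 genes (20%), in narrower peaks in 11 and in none in 13. *Phc1* led them, followed by the Polycomb subunit gene *Eed* (6260 bp), the acetyltransferase gene *Ep300* (3894 bp), the DNA dioxygenase gene *Tet1* (3485 bp) and the Polycomb genes *Jarid2* (3415 bp) and *Suz12* (3100 bp). *Ep300* encodes p300, which deposits this mark, whereas *Crebbp*, the gene of CBP, had no TSS in a peak. *Sirt6* itself, the gene targeted by the shRNA, had a narrower peak of 1888 bp at its TSS. *Utrn*, the utrophin gene followed by the study in muscle, muscle stem cells and myotubes, contained 5 peaks, 0 of them broad, the widest at 1586 bp.

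Of genes for growth and division, 6 of 24 (25%) were in broad domains and 12 in narrower peaks. *Mybl2* was followed by *Mycn* (6394 bp), the cyclin gene *Ccnd1* (5674 bp), the p53 ligase gene *Mdm2* (3688 bp), *E2f1* (3313 bp) and the mitotic cyclin gene *Ccnb1* (3139 bp). *Myc* had a narrower peak of 2305 bp.

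Cytosolic ribosomal protein genes were in broad domains in 36 of 83 cases (43.4%), in narrower peaks in 34 and in none in 13. The widest were at *Rps2* (5922 bp), *Rpl35* (5899 bp), *Rpl23* (5606 bp) and *Rps19* (5156 bp), and their median of 3587 bp was below that of the pluripotency factors. Genes of translation and the cytoskeleton reached 13 of 20 (65.0%), led by the actin gene *Actg1* (5551 bp), the elongation factor gene *Eef1a1* (5388 bp), *Eif4ebp1* (4974 bp) and the cofilin gene *Cfl1* (4912 bp). Chaperone genes reached 8 of 22 (36.4%), in 7 domains, because *Hspd1* and *Hspe1*, the mitochondrial HSP60 and HSP10 genes, share 1 domain of 4568 bp. *Hspa8*, the constitutive HSP70 gene, had 5960 bp. Glycolysis genes reached 4 of 20 (20%), with *Slc2a3*, a glucose transporter gene, at 4747 bp, *Pkm* at 3963 bp, *Eno1* at 3836 bp and *Gapdh* at 3817 bp, while 10 were in narrower peaks. Many ribosomal protein and actin genes have near-identical copies elsewhere, and reads with several possible locations had been dropped, so widths at such genes are uncertain.

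Genes of the histone clusters were in broad domains in 10 of 67 cases (14.9%), which fell into 4 domains. The widest of these, 5318 bp on chromosome 13, held *Hist1h1a*, *Hist1h3a* and *Hist1h4a* whole. Whole protein-coding genes, 29 in number and at most 4389 bp long, lay inside 24 broad domains, among them *Sox2*, *Klf2*, *Mcl1* and *Ier2*.

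Lists of genes from other cell types were small, and their counts in broad domains cannot be told from the 3.22% of all genes. None of 39 *Hox* genes and none of 16 germ layer regulators such as *T*, *Sox17* and *Pax6* had a TSS in any peak. If each gene counted independently, these counts of 0 would allow shares of up to 7.69% and 18.8%. The *Hox* genes lie side by side in clusters, so the limit of 7.69% is too tight. Of all protein-coding genes 21.8% had a TSS in narrower peaks only, and no test against that share was made. Of 14 muscle genes only *Mylpf* was in a broad domain, the 8033-bp one that it shares with *Sept1*, and the other 13 were in no peak. Of 14 fibroblast genes that mark feeder cells only *Fn1* was (7077 bp), and the TSS of *Col1a1*, *Col1a2*, *Col3a1*, *Thy1*, *Vim*, *Acta2* and 7 others were in no peak. Whether feeder chromatin contributed to the *Fn1* domain was not tested.

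**Figure D2:**
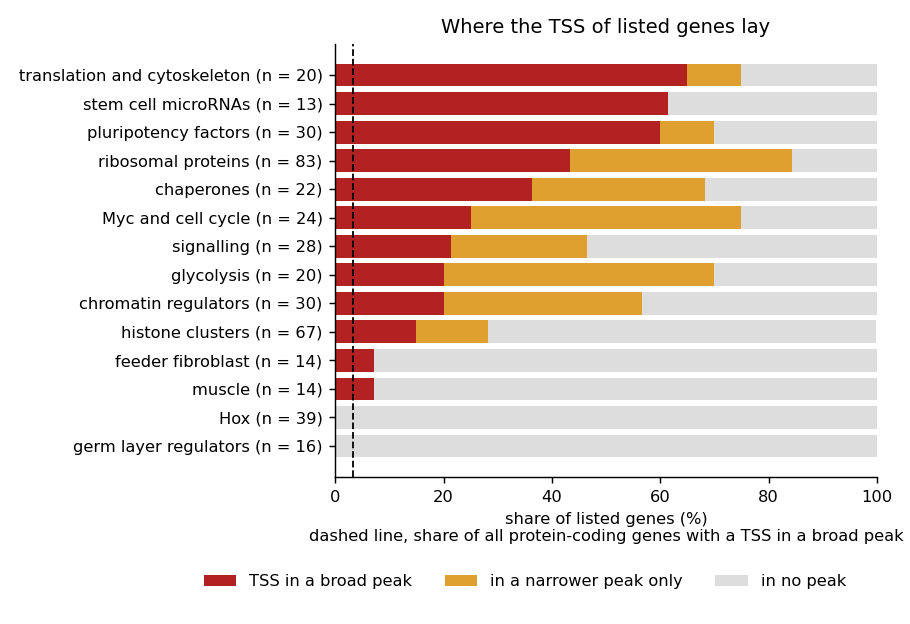
Share of the genes of each list (%) with a TSS in a broad domain (red), in a narrower peak only (orange) or in no peak (light grey), with the number of genes in brackets. Translation and cytoskeleton genes (65.0%) and pluripotency factors (60.0%) reach far beyond the dashed line at 3.22%, the share of all protein-coding genes, while *Hox* genes and germ layer regulators stay at 0.

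To ask whether broad domains lay at promoters or away from them, midpoints were compared with the TSS of protein-coding genes. A midpoint within 1 kb of a TSS was found for 491 broad domains, 64.7% (61.2 to 68.0%), and for 61.6% of narrower peaks. The difference of 3.05 percentage points (-0.54 to 6.5) did not pass (two-sided Fisher's exact test, adjusted p = 0.0962). Midpoints farther than 3 kb from every TSS numbered 173, or 22.8%, compared with 31.0% of narrower peaks, a difference of -8.22 points (-11.2 to -4.98, Fisher's exact test, adjusted p = 4.04e-06). Of these distal domains 117 were intergenic, 51 intronic and 5 exonic, and the 95 others lay 1 to 3 kb from a TSS. The nearest gene had a CpG-rich promoter, one with an observed/expected CpG ratio over 0.6, for 76.5% of broad domains and 71.7% of narrower peaks. This difference was 4.86 points (1.6 to 7.86, Fisher's exact test, adjusted p = 0.00574).

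These directions depended on which narrower peaks were taken, because the shares did not change evenly with width. Promoter midpoints rose from 35.5% in peaks under 500 bp to 81.9% in peaks of 2 to 3 kb, then fell to 69.8% at 3 to 5 kb and to 41.6% at 5 kb or more. Distal midpoints ran the other way, from 55.0% to 13.7%, and then to 20.9% and 31.4%. When broad domains were compared only with peaks of 1500 to 3000 bp, the promoter difference became -15.8 points (p = 1.28e-18), the distal difference 7.99 points (p = 3.51e-07) and the CpG difference -3.22 points (p = 0.0556, all Fisher's exact test). A midpoint also moves away from the TSS as a peak grows to 1 side. A TSS still lay inside 69.3% of domains of 5 kb or more, and inside 577 (76.0%) of all broad domains, beside 83.0% of peaks of 2 to 3 kb.

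**Figure D3:**
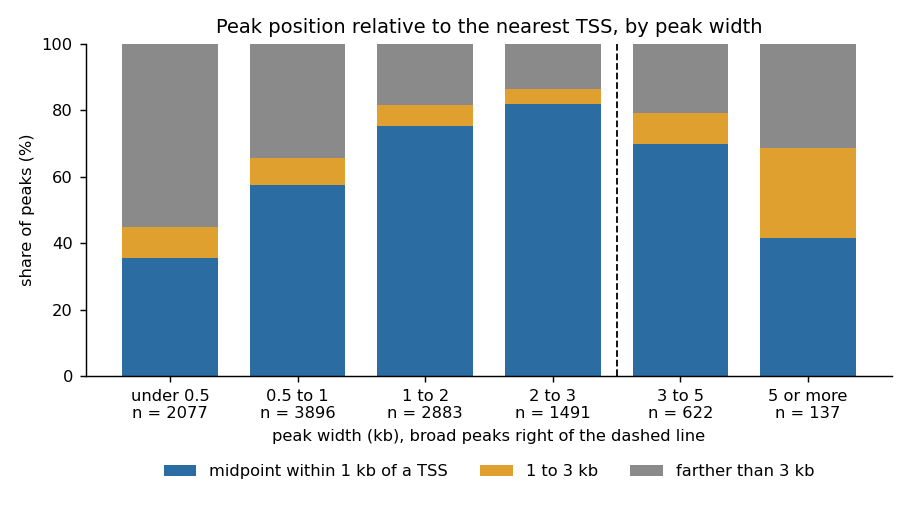
Share of peaks (%) whose midpoint lay within 1 kb, 1 to 3 kb or farther than 3 kb from a TSS, for 6 classes of peak width in kb, with the number of peaks under each bar. The promoter share peaks at 81.9% just left of the dashed line at 3 kb and is 41.6% in the widest class.

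The 577 domains with a TSS inside reached a median of 1684 bp upstream of it (quartiles 1308 and 2208 bp) and 1970 bp downstream (quartiles 1608 and 2504 bp). Peaks of 2 to 3 kb reached 1122 and 1240 bp. The greater reach follows from the width. The midpoint lay on the transcribed side of the TSS in 350 of 577 broad domains (60.7%) and in 67.1% of 4301 narrower peaks. The difference was -6.49 points (-10.8 to -2.34, Fisher's exact test, adjusted p = 0.00454), and with only the 5′ end of each gene as TSS it was -2.57 points and did not pass. Nor did it pass against peaks of 1500 to 3000 bp, at -2.62 points. The transcribed-side share moved with width, from 61.2% in peaks of 2000 bp or more to 54.0% from 4000 bp and 50.5% from 5000 bp. Extent beyond 3 kb was found for 10.1% of these domains upstream and 14.7% downstream. The TSS of 1 gene was held by 449 domains and those of 2 to 4 genes by 128, and in 123 of the latter the genes lay on both strands. The 707 genes had a median length of 18068 bp, and 80.6% had a CpG-rich promoter, beside 76.8% of the genes with narrower peaks only and 35.5% of those with no peak at a TSS.

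**Figure D4:**
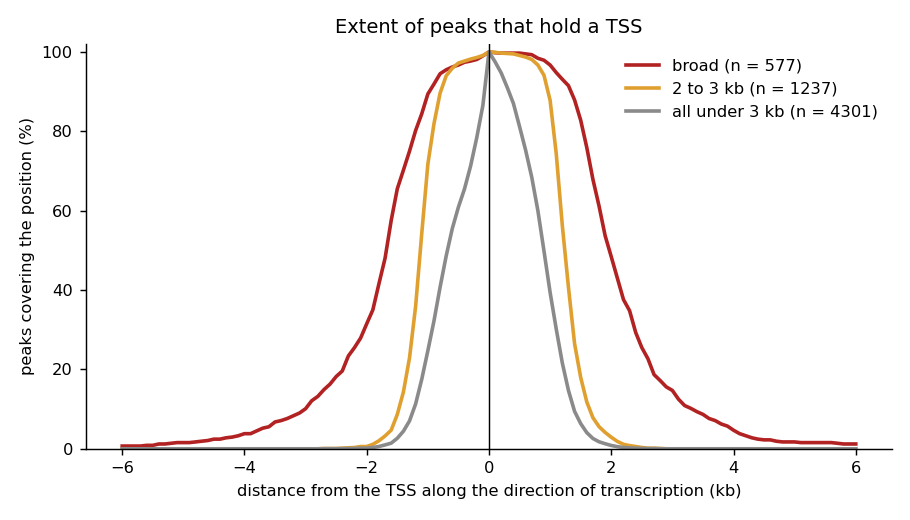
Share of TSS-holding peaks (%) that cover each position, in kb from the TSS along the direction of transcription. At 2 kb downstream 48.4% of broad domains and 2.91% of peaks of 2 to 3 kb still cover the position, and at 2 kb upstream 31.5% and 0.566%.

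Distal broad domains, as set by the midpoint, numbered 173 and had a median width of 3813 bp. Because of their width, 2 of them, at *Esrrb* and *B3gnt7*, still held a protein-coding TSS. The midpoint lay upstream of the nearest TSS in 96 and downstream in 77, and 50 overlapped the body of the gene with that TSS. A TSS of a long noncoding RNA was inside 33, and 135 held no TSS of any annotated gene. *Malat1*, an abundant nuclear RNA, had a domain of 7525 bp (chromosome 19, 5799799 to 5807323). *Platr10*, a noncoding RNA gene named for its pluripotency-associated expression, lay at the domain of 6183 bp on chromosome 3 (75649678 to 75655860), of which 68.2% was repeat-masked. *Lncenc1*, a noncoding RNA of naive stem cells, lay at a domain of 5361 bp that was 242840 bp from the nearest protein-coding TSS.

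Several distal domains lay near regulators named above. Downstream of *Sox2*, a domain of 6289 bp (chromosome 3, 34754713 to 34761001) had its midpoint 107452 bp from the TSS, and distal enhancers of *Sox2* are known on that side. *Klf4* had 5078 bp at its TSS and a domain of 7585 bp (chromosome 4, 55474008 to 55481592) centred 53970 bp downstream. Before the miR-290 hairpins lay domains of 7316 bp (chromosome 7, 3200026 to 3207341) and 5183 bp (3209930 to 3215112). With the 3030-bp domain over the hairpins they covered 74.9% of 20730 bp. A peak position does not tell which gene a distal domain acts on.

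Broad domains lay near each other more often than narrower peaks lay near them. Another broad domain had its midpoint within 50 kb for 207 of 759 (27.3%, 24.2 to 30.5%), and a broad domain lay that close to 13.2% of narrower peaks. The difference of 14.1 points (11.0 to 17.4) passed (two-sided Fisher's exact test, adjusted p = 3.92e-22), although neighbours count each other and peaks close together are not independent. Against peaks of 2 to 3 kb, with 16.0%, the order was the same. The share was 24.8% at 3 to 5 kb and 38.7% at 5 kb or more. Among broad domains it held for 98 of 491 at promoters, 31 of 95 at 1 to 3 kb (32.6%) and 78 of 173 distal ones (45.1%). The gap to the nearest peak of any width had a median of 10918 bp in broad domains and 22363 bp in narrower peaks. The smallest gap in the whole set was 1000 bp, so pieces of signal that lay closer may be joined within a domain.

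The 207 domains formed 95 groups, of which 80 had 2 domains, 14 had 3 and 1 had 5. The group of 5 on chromosome 7 (127194453 to 127236650) covered 57.4% of 42198 bp and held the TSS of *Cd2bp2*, *Tbc1d10b*, *Mylpf*, *Sept1* and *Zfp553*. At *Mcl1*, 3 domains of 5382, 7982 and 3849 bp covered 65.2% of 26410 bp. At *Cdh1*, the gene of E-cadherin, which holds stem cell colonies together, 3 domains of 3163, 4233 and 3783 bp lay in the first part of the gene and covered 58.3% of 19167 bp. *Zmynd8*, which encodes a reader of histone acetylation, also overlapped 3. In all, 28 protein-coding genes overlapped 2 or more broad domains, among them *Trim71* (4876 and 4805 bp), *Slc2a3* (4747 and 5397 bp) and *Trim28* (6581 and 3368 bp). One gene model, *Gm20388*, overlapped 8 because it is annotated over 4434882 bp.

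Chromosomes differed in their share of broad domains. Chromosome 1 had 85 among 759 peaks (11.2%) and chromosome 11 had 89 of 950 (9.37%), followed by chromosomes 17 (8.47%) and 8 (8.35%). The lowest autosomal share was 4.07%, on chromosome 13. Chromosomes 1, 11 and 8 also had the widest promoter peaks, with medians of 1499, 1386 and 1336 bp, and the remaining autosomes had 1014 to 1253 bp. X had 6 broad domains of 178 peaks, a median promoter peak of 771 bp, and Y had 0 of 2. The X held 0.791% of broad domains and 1.66% of narrower peaks (difference -0.872 points, -1.37 to 0.0795, two-sided Fisher's exact test, adjusted p = 0.085).

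**Figure D5:**
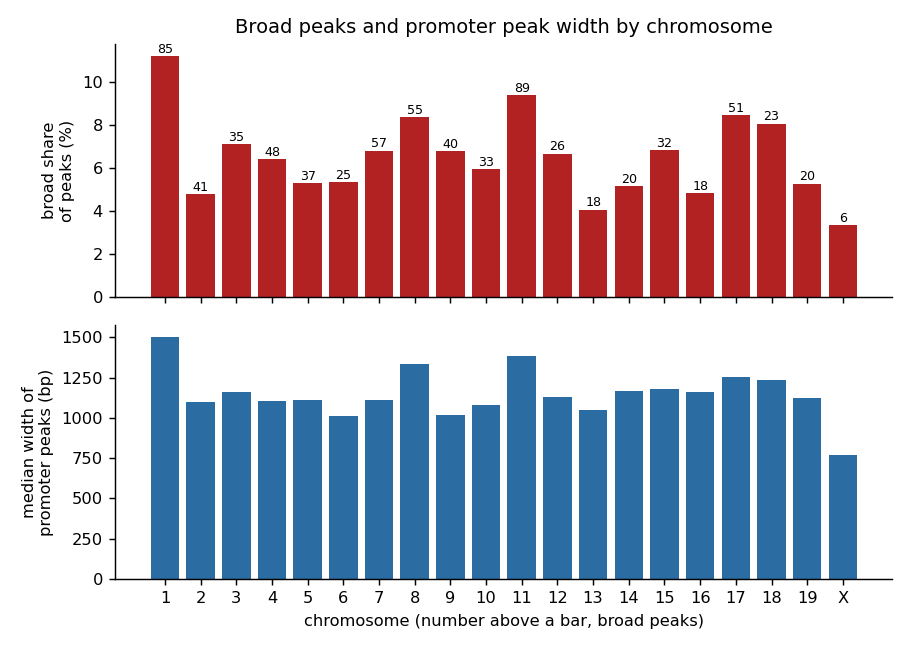
Upper panel, share of broad domains among the peaks of each chromosome (%), with their number above each bar. Lower panel, median width of peaks with a midpoint within 1 kb of a TSS (bp). Y is not drawn, and of the 20 chromosomes shown chromosome 1 is highest in both, at 11.2% and 1499 bp, and X lowest, at 3.37% and 771 bp.

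Binding motifs of stem cell factors were searched on both strands in the central 400 bp. The octamer ATTTGCAT, bound by OCT4, occurred in 1.98% of broad domains (1.2 to 3.23%) and 1.49% of narrower peaks. The ESRRB motif TCAAGGTCA occurred in 1.45% and 0.976%, the KLF motif CCACACCC in 3.56% and 3.74%, the AP-1 motif TGANTCA in 8.04% and 9.28%, and the SOX motif CATTGT in 13.8% and 13.2%. In distal broad domains and distal narrower peaks the shares were 2.89% and 2.27% for the octamer, 3.47% and 1.22% for ESRRB, and 3.47% and 3.55% for KLF. They were 11.6% and 12.9% for AP-1 and 16.8% and 18.4% for SOX. No test was made. The intervals of broad and narrower peaks overlapped for each motif, which does not show that the shares are equal. For ESRRB in distal peaks they barely met, at 1.6 to 7.36% and 0.89 to 1.66%. The central 400 bp are a smaller part of a broad domain than of a narrower peak. Over whole widths, broad domains and narrower peaks had 0.544 and 0.405 octamers per 10 kb, and 0.41 and 0.271 ESRRB matches. The values were 1.21 and 1.05 for KLF, 2.65 and 2.49 for AP-1, and 4.25 and 3.86 for SOX. In distal ones AP-1 (3.29 and 3.56) and SOX (4.93 and 5.22) had the reverse order. Stretches of 100 bases outside exons, on the plus strand, show matches in capitals from anywhere in 3 of the 6 widest domains, including outside the central 400 bp to which the shares refer. They are an octamer and a KLF match that do not overlap in *Phc1*, an ESRRB match in *Sox2* and an octamer in *Myo10*. Each stretch was picked for holding the most different motifs, so it does not show how common matches are. The *Myo10* octamer was the only 1 in that domain of 21508 bp.
*Phc1*, chr6:122341130-122341229, plus strand: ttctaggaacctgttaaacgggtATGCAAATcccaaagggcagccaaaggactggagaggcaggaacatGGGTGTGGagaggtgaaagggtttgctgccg
*Sox2*, chr3:34654998-34655097, plus strand: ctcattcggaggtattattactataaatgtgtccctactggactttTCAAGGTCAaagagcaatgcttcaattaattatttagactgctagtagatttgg
*Myo10*, chr15:25761167-25761266, plus strand: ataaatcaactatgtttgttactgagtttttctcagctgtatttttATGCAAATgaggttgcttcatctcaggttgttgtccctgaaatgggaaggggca

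The *Phc1* stretch was centred 619 bp upstream of the TSS, the *Sox2* stretch 4643 bp downstream and the *Myo10* stretch 2432 bp downstream. A match is a run of letters and does not show that a factor was bound.

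The threshold of 3000 bp cut a continuous distribution. Widths of broad domains had quartiles of 3276 and 4441 bp. Just outside were peaks at *Smc4* (2993 bp), *Erf* (2996 bp), *Rpp25* and *Rrm2* (2998 bp each) and *Krcc1* (2999 bp). Just inside were domains nearest to *Klf13* (3001 bp), *Zfp704* (3002 bp), *Dbf4* (3003 bp), *P4hb* (3005 bp) and *Rsrc2* (3006 bp).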

How the data were processed

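The deposited file held positions of merged H3K56ac peaks and a score column that was 0 throughout and not used. According to the methods, the authors aligned reads to mm10 with Bowtie, kept uniquely placed reads, removed duplicates, called peaks with MACS2, removed blacklisted regions and merged peaks across libraries. Merging widens peaks and hides their library. FastQC, SAMtools and deepTools are also named in the submitters' processing notes. Deposited positions counted from 0 are printed counted from 1.

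Peaks were annotated with GENCODE M21 and the reference GRCm38, using all TSS of 21938 protein-coding genes. Broad domains were compared with narrower peaks by 6 two-sided Fisher's exact tests, Benjamini-Hochberg adjusted over the 6, with Newcombe intervals for differences. Motifs and CpGs were counted in reference sequence. Members, lists and tests were chosen with earlier results of these data known. Named were the genes at the 25 widest domains, up to 8 genes of a list in order of width, *Utrn* and *Sirt6*. All other named genes were chosen after their values were seen. Alternatives changed the width, the distance limits, the TSS set and the peaks compared. Python 3.11.15 with numpy 2.4.6, pandas 2.3.3 and scipy 1.17.1 was used. On simulated peak counts the test of the distal share called 199 of 200 sets with a planted difference of -8 points and 5 of 200 without. Simulated peaks were independent of each other, unlike peaks grouped along chromosomes, so these counts do not give the rate of false calls in the real peaks. Some genes are not reported here.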

Additional observations from a re-analysis of the deposited data

How the results depend on the processing

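Of 48 alternatives to the 6 comparisons, 29 kept direction and side of the threshold of 0.05, by unadjusted Fisher's exact test. All alternatives for neighbours within 50 kb did. The promoter difference of 3.05 points was 17.9 points for broad domains from 2000 bp, -12.0 from 4000 bp and -20.5 from 5000 bp. It was -15.8 against peaks of 1500 to 3000 bp and -0.295 with 1 TSS per gene. With only the widest peak of each run of peaks less than 50 kb apart it was -1.27. With a limit of 500 bp it was -0.891, with 2 kb 8.25, and with any base of the peak 12.9 points. The distal difference was -3.78 from 4000 bp, 0.947 from 5000 bp and 7.99 against peaks of 1500 to 3000 bp. The transcribed-side difference was -2.62 against those peaks, -2.57 with 1 TSS per gene, -12.9 from 4000 bp and -16.2 from 5000 bp. The CpG difference was 10.2 from 2000 bp, 11.2 with a ratio over 0.75, 1.62 from 4000 bp, 2.46 from 5000 bp and -3.22 against peaks of 1500 to 3000 bp. The X difference passed from 2000 bp (-1.01) and with only the widest peak of each run (-1.42). The cause of these shifts was not tested. No paired analysis was possible because no value of a library survives in the merged peaks, and for the same reason no replicate could be left out. Depth per domain is unknown, so it cannot be said how far width depends on it.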
